A study of Mus musculus with 11 samples.

Results

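The 10 genes described here carry out or control antigen presentation by major histocompatibility complex (MHC) class I: H2-K1, H2-D1, H2-Q7, H2-T23, B2m, Tap1, Tap2, Tapbp, Tapbpl and Nlrc5. They were chosen by symbol, as the rows of the deposited table that bear these names, and all 10 were found among its 10885 genes. Bulk RNA-seq was made from unsorted cells of the spleen and of lymph node (LN). Of the 6 mice, the wild-type mice 1 and 2 (Wt) gave both tissues. The transgenic mice (Tg, 3'RR-BCL2) have BCL2 driven by the heavy chain locus's 3' regulatory region, and mouse 3 gave LN only here while mouse 4 gave both tissues. The knock-in mice 5 and 6 (KI, Igk-BCL2) carry BCL2 at the immunoglobulin kappa light chain locus and gave both tissues. Both models thus place an anti-apoptotic gene under control elements of B cells, while the RNA came from the whole tissue. All mice, Wt included, had been immunised into the peritoneum with sheep red blood cells over 3 months, and tissue was taken 1 month after the last dose. This gave 11 libraries in 6 groups, with 2 libraries in each group except spleen Tg, which had 1. The labels used here give no strain, age, sex or H2 haplotype, so a difference between the lines' backgrounds cannot be told apart from genotype. They name 2 RNA extraction kits without saying which library had which.

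MHC class I molecules show peptides from the cell's own proteins to CD8 T cells and, through some members, to natural killer (NK) cells. The proteasome makes the peptides, the transporter formed by Tap1 and Tap2 carries them into the endoplasmic reticulum, and tapasin and the related Tapbpl protein edit which peptides are bound. A heavy chain folds with beta-2 microglobulin and peptide before it travels to the cell surface. Nlrc5 acts in the nucleus as the transactivator of these genes, and interferons are known to raise them.

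The upstream sequences are shown to describe which of the 4 heavy chains share an upstream region. They come from a reference build, while the H2 haplotype of these mice is not given. Whether they bear on the differences below was not tested. Of the 10 genes, 7 had an entry in the RefSeq promoter table (build GRCm38.p6), and Tap2, Tapbpl and Nlrc5 had none. Each line gives the 250 bases before the annotated start, read 5' to 3' on the gene's strand. Capitals mark exact matches, on either strand, to GGGATTCCC (a kappa B site), TTTCACTTC (the form the interferon element takes in classical class I genes), TTTCNNTTT (an interferon response element core), TGACG and CCAAT. The motifs were picked after the sequences had been seen.
H2-K1, chr17:34000348-34000597, minus strand: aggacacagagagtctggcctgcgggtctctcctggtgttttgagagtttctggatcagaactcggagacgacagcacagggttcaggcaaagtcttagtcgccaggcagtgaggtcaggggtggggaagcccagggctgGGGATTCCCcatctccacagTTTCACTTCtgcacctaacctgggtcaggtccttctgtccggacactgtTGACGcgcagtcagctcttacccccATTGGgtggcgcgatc
H2-D1, chr17:35262844-35263093, plus strand: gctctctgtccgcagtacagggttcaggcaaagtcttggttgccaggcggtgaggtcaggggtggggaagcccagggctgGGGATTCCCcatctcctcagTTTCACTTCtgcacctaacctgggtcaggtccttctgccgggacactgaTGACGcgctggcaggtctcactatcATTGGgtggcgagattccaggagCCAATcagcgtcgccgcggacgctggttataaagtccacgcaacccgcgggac
H2-Q7, chr17:35438905-35439154, plus strand: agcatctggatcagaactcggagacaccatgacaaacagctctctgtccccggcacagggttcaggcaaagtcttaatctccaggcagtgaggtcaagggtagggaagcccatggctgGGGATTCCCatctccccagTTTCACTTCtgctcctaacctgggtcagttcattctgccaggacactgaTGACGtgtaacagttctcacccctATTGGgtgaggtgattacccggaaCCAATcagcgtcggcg
H2-T23, chr17:36032702-36032951, minus strand: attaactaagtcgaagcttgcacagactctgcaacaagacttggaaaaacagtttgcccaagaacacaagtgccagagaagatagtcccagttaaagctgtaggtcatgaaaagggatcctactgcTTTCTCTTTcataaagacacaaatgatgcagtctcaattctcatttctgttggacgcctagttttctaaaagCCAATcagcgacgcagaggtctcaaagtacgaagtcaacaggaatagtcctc
B2m, chr2:122147437-122147686, plus strand: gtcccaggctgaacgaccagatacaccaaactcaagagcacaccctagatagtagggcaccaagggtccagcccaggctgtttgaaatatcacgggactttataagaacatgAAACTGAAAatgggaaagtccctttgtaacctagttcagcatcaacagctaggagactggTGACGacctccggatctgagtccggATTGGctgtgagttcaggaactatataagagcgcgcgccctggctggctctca
The windows of H2-K1, H2-D1 and H2-Q7 read nearly alike. H2-K1 and H2-D1 were identical at 87.4% of 190 aligned bases, H2-K1 and H2-Q7 at 88.2% of 203, and H2-D1 and H2-Q7 at 85.8% of 211. Each of these 3 holds GGGATTCCC, which 0.301% of the 32851 promoters searched hold, and TTTCACTTC, which 0.402% hold. The H2-T23 window holds neither of them. It has TTTCTCTTT, which matches TTTCNNTTT and starts 124 bases before the start, and B2m has the same motif on the other strand, as AAACTGAAA, 138 bases before the start. That motif stands in 9.37% of promoters. TGACG was found in 5 of the 7 windows (17.8% of all promoters) and CCAAT in 7 of 7 (33.8%). A match is only a description of these letters.

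Depth was not a limit for these genes. LN libraries held between 11128568 and 21067988 reads over the genes of the table, spleen libraries between 18994455 and 24110325, and the least abundant member in any library rested on 1032 reads. Values are the authors' normalised read counts, in which reads of a gene are divided by 1 factor per library, and differences are given on the log2(value + 1) scale. Together the 10 genes took between 0.927% and 1.12% of a library's normalised signal. The tissues carried their markers: summed over 20 T cell genes, Wt LN stood at 118658 to 127913 and Wt spleen at 64384 to 66252, and summed over 12 macrophage genes, Wt spleen stood at 10618 to 10976 and Wt LN at 1872 to 2654. Within groups, erythroid genes differed between the KI spleens (sums of 3029 and 25898 over 8 genes) and neutrophil genes between the Wt spleens (6289 and 49374 over 10 genes). Mouse Bcl2, the endogenous counterpart of the inserted gene, lay between 2338 and 2716 in the 4 Wt libraries, between 2065 and 3171 in the 3 Tg libraries and between 1246 and 1664 in the 4 KI libraries. Which species of BCL2 was inserted is not given in the sources used here, so this gene does not check the labels. Xist was at 14513 and 12314 in the spleen and LN of Wt mouse 1 and at no more than 8.0 in the other 9 libraries, in which the Y-linked gene Ddx3y was at 1452 or more, so that mouse 1 was a female and the other 5 were males.

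In Wt tissue, B2m and the classical heavy chains stood highest of the 10, and Tapbpl and the regulator Nlrc5 lowest. Per kilobase of exon, a scale for a rough comparison of genes, Wt spleen held B2m at 25703 and 29337 in mice 1 and 2. H2-K1 was at 19727 and 20029 there and H2-D1 at 20283 and 21465. In Wt LN, H2-K1 was at 24025 and 23010 and H2-D1 at 21320 and 21922. The order of H2-K1 and H2-D1 in spleen depends on the lengths used, all annotated exons joined (2938 and 2579 bases). Before division by length, H2-K1 was above H2-D1 in Wt spleen too, at 57959 and 58844 against 52311 and 55357. H2-Q7, a Qa-2 heavy chain, followed at 3039 and 3072 per kilobase, and H2-T23, the Qa-1 heavy chain whose peptide cargo is read by the CD94/NKG2 receptors of NK cells, at 2441 and 2474. The transporter subunit Tap1 (1168 and 1194) and Tapbp, which encodes tapasin (1170 and 1323), were next and overlapped, then Tap2 at 791 and 871. Tapbpl at 520 and 588 per kilobase and Nlrc5 at 573 and 513 were the lowest and overlapped. Exon lengths came from GENCODE M21, and counts of the heavy chains carry some doubt, because near-identical copies exist. Of all 50-base windows in annotated transcripts, 26.5% for H2-Q7, 14.5% for H2-T23, 12.8% for H2-D1 and 9.63% for H2-K1 occur in at least 1 other gene, against 0% for B2m. Windows of Tapbp (23.2%) and Tap2 (11.6%) were shared mostly with 1 overlapping predicted gene each.

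**Figure D1:**
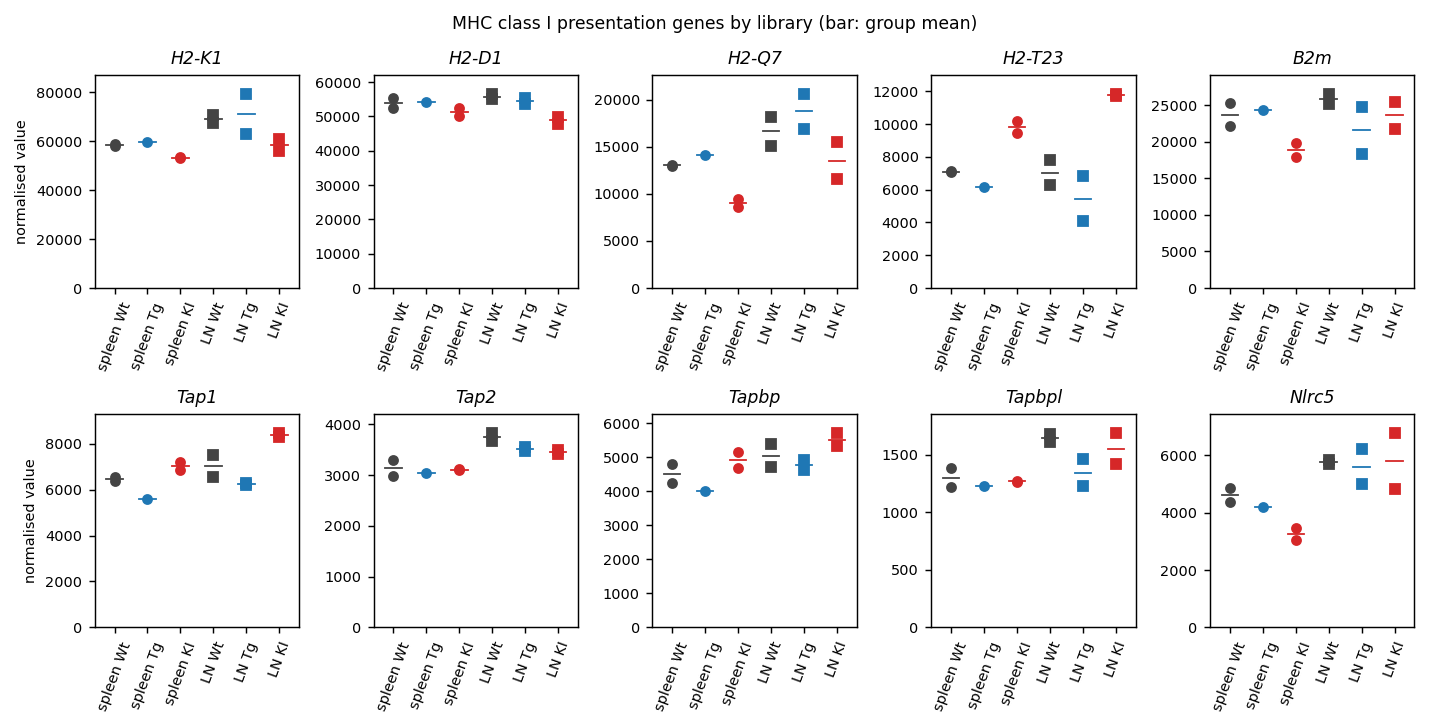
Normalised value (y axis, linear from 0) of each of the 10 genes in the 11 libraries, by tissue and genotype; circles are spleen, squares are LN, and bars are group means. H2-T23 is higher in the 4 KI libraries (9475 to 11837) than in the 7 others (4070 to 7802), while H2-D1 stays between 47914 and 56538 throughout.

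How widely a gene ranged over the 11 libraries differed within the pathway. H2-T23 had the widest range of the 10, 2.91-fold from its lowest to its highest library, followed by H2-Q7 at 2.41-fold and Nlrc5 at 2.21-fold. H2-D1 had the narrowest, 1.18-fold, and Tap2 came next at 1.28-fold. The regulator and the nonclassical heavy chains thus varied more than the classical heavy chains and the transporter.

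Comparing KI with Wt LN asks how a kappa-locus BCL2 goes with class I genes in the lymph node. H2-T23 rose, and no other of the 10 genes was called. In LN it stood at 7802 and 6273 in Wt mice 1 and 2 and at 11837 and 11689 in KI mice 5 and 6. Both KI libraries lay well above both Wt libraries and close to each other. The difference was 0.75 ± 0.21 (SE, n = 2 mice per group), a 1.68-fold change, at a limma adjusted p of 0.0245. Of all genes, 26.0% were called in this comparison, 13.8% as higher and 12.2% as lower, so 1 call among 10 genes is not above the background.

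The other genes of the pathway lay closer together in LN. Tap1 was at 7510 and 6536 in Wt and at 8319 and 8463 in KI, without overlap, but its difference of 0.26 ± 0.10 was not called (limma adjusted p = 0.0916). Classical heavy chains leaned the other way: H2-K1 was at 70584 and 67603 in Wt and at 55938 and 61049 in KI (-0.24 ± 0.13, limma adjusted p = 0.22), and H2-D1 at 54984 and 56538 against 47914 and 49767 (-0.19 ± 0.11, limma adjusted p = 0.245). In all, 2 of the 10 genes did not overlap with KI higher and 3 (H2-K1, H2-D1 and Tap2) with KI lower, where 32.0% and 34.8% of all genes did so. H2-Q7 overlapped, at 15118 and 18141 in Wt against 11558 and 15466 in KI. The remaining members, B2m, Tapbp, Tapbpl and Nlrc5, overlapped too, with differences between -0.13 and 0.13. With 2 mice a group, intervals are wide: the 95% interval of the Nlrc5 difference ran from -0.37 to 0.35.

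The H2-T23 call in LN was not stable. It was lost in 7 of 8 fits that left out a Wt or KI library or mouse, where the difference ran from 0.59 to 0.91 and the adjusted p from 0.0382 to 0.202, in a fit of LN alone (adjusted p = 0.0679) and in edgeR on recovered reads (0.75, adjusted p = 0.0833). Leaving out both tissues of the female Wt mouse gave 0.91 (limma adjusted p = 0.0646). Under other scalings further members passed in LN. Tap1 did so without immunoglobulin and haemoglobin genes (0.39) and by quantile normalisation (0.43). H2-K1 (-0.83) and H2-D1 (-0.41) passed by quantile normalisation alone. Without immunoglobulin and haemoglobin genes, H2-K1 was at -0.11 (limma adjusted p = 0.579) and H2-D1 at -0.06 (limma adjusted p = 0.74), both nearer to no difference than in the main fit.

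In spleen, the call between KI and Wt fell on another member. H2-Q7 was called lower, and none of the 10 was called higher. In Wt spleen H2-Q7 was at 12961 and 13102, and in KI spleen it was at 9451 and 8567. The KI libraries lay below the Wt libraries with a gap larger than the spread within either group. The difference was -0.53 ± 0.16 (SE, n = 2 mice per group), a ratio of 0.691, at a limma adjusted p of 0.0449. In this comparison 16.8% of all genes were called, 7.63% as higher and 9.21% as lower, so 1 call among 10 genes is near the background. In LN the H2-Q7 difference was -0.31 ± 0.16 and was not called (limma adjusted p = 0.189).

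H2-T23 and Nlrc5 came next in spleen, in opposite directions. H2-T23 was at 7052 and 7147 in Wt and at 10164 and 9475 in KI, a difference of 0.47 ± 0.21 that was not called (limma adjusted p = 0.151). Nlrc5 was at 4868 and 4358 in Wt and at 3454 and 3062 in KI, a difference of -0.50 ± 0.16 that was not called either (limma adjusted p = 0.059). Both genes separated the groups without overlap. B2m was at 22105 and 25230 in Wt spleen and at 19796 and 17919 in KI spleen (-0.33 ± 0.16, limma adjusted p = 0.175). In all, 2 of the 10 genes did not overlap with KI higher (34.4% of all genes) and 4 with KI lower (31.9%).

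The spleen call of H2-Q7 was lost in all 8 fits that left out a library or mouse, where the difference ran from -0.605 to -0.463 and the lowest adjusted p was 0.0969, and under both other scalings (-0.44 and -0.42). Quantile normalisation called H2-K1 (-0.54) and H2-D1 (-0.38) lower in its place. Without immunoglobulin and haemoglobin genes, H2-K1 was at -0.04 and H2-D1 at 0.02. In a fit of the spleen libraries alone the H2-Q7 call stayed (adjusted p = 0.0092). There H2-T23 (adjusted p = 0.013) and Nlrc5 (adjusted p = 0.0163) passed as well.

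**Figure D2:**
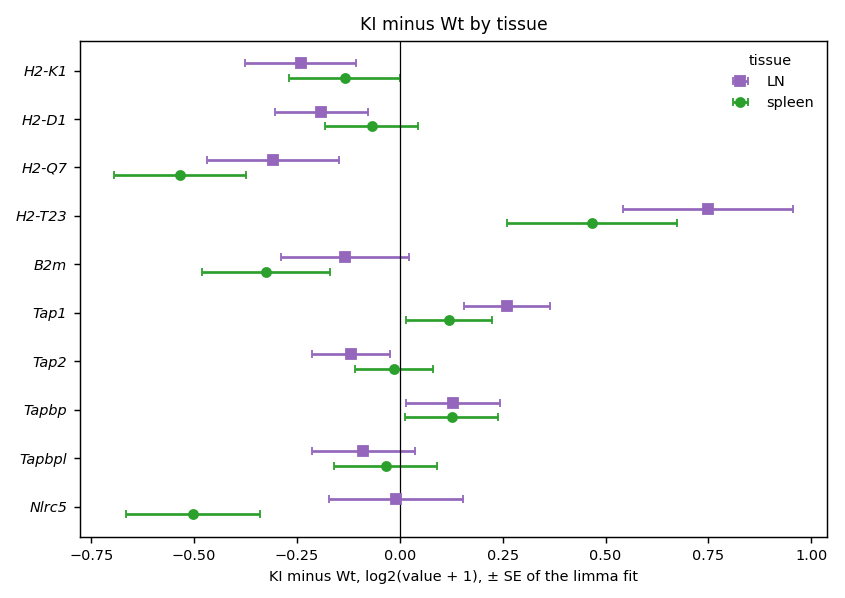
KI minus Wt on the log2(value + 1) scale (x axis) for each gene (y axis), with bars of ± 1 standard error of the limma fit; squares are LN and circles are spleen. H2-T23 lies to the right in both tissues (0.75 in LN, 0.47 in spleen), and Nlrc5 differs from 0 by more than its error in spleen (-0.50) but not in LN (-0.01).

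Whether the KI difference itself depended on tissue was tested as an interaction. None of the 10 genes passed, where 0.955% of all genes did, 0.763% with the higher difference in LN and 0.193% with the lower. Of the 10, Nlrc5 had the smallest p: its KI minus Wt difference was 0.49 ± 0.23 higher in LN than in spleen (limma adjusted p = 0.361, unadjusted p = 0.0573, 95% interval -0.02 to 1.0). For H2-T23 the difference between tissues was 0.28 ± 0.29 (limma adjusted p = 0.724), and for H2-Q7 it was 0.23 ± 0.23 (limma adjusted p = 0.713). With the mouse as a fixed replicate block, 596 genes passed the interaction test in place of 104, and still none of the 10.

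KI LN was also compared with Tg LN, which sets the 2 models against each other. H2-T23 and Tap1 were higher in KI and H2-Q7 was lower. In Tg LN, H2-T23 was at 6836 in mouse 3 and 4070 in mouse 4, which overlapped the Wt values (7802 and 6273; Tg minus Wt -0.41 ± 0.21, limma adjusted p = 0.96) and lay below both KI values. KI exceeded Tg by 1.16 ± 0.21, or 2.23-fold (limma adjusted p = 0.0036), and this call held in each alternative run for it, where the difference ran from 0.78 to 1.53. Tap1 was at 6288 and 6201 in Tg, below all Wt and KI LN libraries, and KI exceeded Tg by 0.43 ± 0.10 (limma adjusted p = 0.013). H2-Q7 was at 16893 and 20611 in Tg LN, and KI was lower by -0.48 ± 0.16 (limma adjusted p = 0.0486). Of all genes, 26.7% were called in this comparison, 14.5% as higher and 12.2% as lower, beside 3 of the 10. Groups did not overlap for 3 members with KI higher (32.7% of all genes) and 3 with KI lower (30.0%).

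The Tap1 call against Tg was lost in edgeR (0.42, adjusted p = 0.0505) and without either KI mouse (0.41 to 0.44). The H2-Q7 call was lost in 4 fits that left out a library or mouse, down to -0.27 without KI mouse 5, in edgeR (-0.48, adjusted p = 0.153), in a fit of LN alone (adjusted p = 0.111), at a mean of at least 200 (adjusted p = 0.0511), without immunoglobulin and haemoglobin genes (-0.39, limma adjusted p = 0.0868) and by quantile normalisation (-0.34, limma adjusted p = 0.142). Quantile normalisation called H2-K1 lower against Tg LN instead, at -0.83 (limma adjusted p = 0.00105) in place of -0.28 (limma adjusted p = 0.156). By the same normalisation H2-K1 was also at -0.83 in KI minus Wt LN and at 0 in Tg minus Wt LN. Against Tg LN it was at -0.18 (limma adjusted p = 0.305) without immunoglobulin and haemoglobin genes, and at -0.44 without Tg mouse 3. In spleen, KI could be set only against 1 Tg library, and none of the 10 genes passed, with 7.71% of all genes called, 3.35% as higher and 4.35% as lower. Both KI spleens lay above that library in 5 members (42.1% of all genes) and below it in 5 (40.9%).

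Tg and Wt did not differ by the test in either tissue. In LN 0 of 10 members and 0 of all 10885 genes were called by limma (532 at an unadjusted p under 0.05) and 0 by edgeR. Tg mouse 4 stood apart from Tg mouse 3 in several members: its LN had the lowest H2-T23 (4070) of all 11 libraries, the highest H2-K1 (79312) and H2-Q7 (20611), and B2m at 18375 against 24705 in mouse 3. Among the 5 spleens, that of mouse 4 likewise had the lowest H2-T23 (6152) and the highest H2-K1 (59678) and H2-Q7 (14111), while its B2m (24290) lay between the Wt spleens. In LN, 4 of 10 members (B2m, Tap1, Tap2 and Tapbpl) lay lower in both Tg libraries than in both Wt libraries, where 14.6% of all genes did so, and none lay higher (12.7%). Of the 10, Tapbpl came closest to a call, at -0.30 ± 0.13 (limma adjusted p = 0.96). In spleen, 0 of 10 members and 0 of all genes were called (164 at an unadjusted p under 0.05), with the spread of the lone Tg library taken to be that of the other groups. That library lay above both Wt spleens in 2 members (32.3% of all genes) and below both in 4 (32.1%). For the dependence of the Tg difference on tissue, 0 members and 0 genes were called (200 at an unadjusted p under 0.05).

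Between tissues, with genotype held equal, H2-Q7, Nlrc5, Tap2 and Tapbpl were higher in LN and none of the 10 was lower, where 15.1% of all genes were called, 6.05% as higher and 9.07% as lower. Nlrc5 was at 4868, 4358, 4202, 3454 and 3062 in the spleens of mice 1, 2, 4, 5 and 6 and at 5834, 5696, 6207, 4837 and 6774 in their LN, with 4989 in the LN of mouse 3. Its LN value exceeded the spleen value in each of the 5 mice, most in KI mouse 6 (by 1.15) and least in Wt mouse 1 (by 0.26), and the difference was 0.53 ± 0.12 (limma adjusted p = 0.00863). H2-Q7 was higher in LN by 0.44 ± 0.10 (limma adjusted p = 0.00857), with per-mouse differences from 0.22 to 0.85. These 2 calls held in each alternative run for them. Tap2 rose by 0.21 ± 0.05 (limma adjusted p = 0.0243) and Tapbpl by 0.27 ± 0.07 (limma adjusted p = 0.0325). With the mouse as a fixed replicate block, 2 of the 4 calls were lost, those of Tap2 (0.21, adjusted p = 0.0565) and Tapbpl (0.25, adjusted p = 0.0834).

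Among the members not called between tissues, H2-K1 was higher in LN in all 5 mice (0.20 ± 0.08, limma adjusted p = 0.105), as were Tap1 (0.18 ± 0.06, limma adjusted p = 0.074) and Tapbp (0.18 ± 0.07, limma adjusted p = 0.0884). For Tap1 the difference in Wt mouse 2 was 0 at 3 decimals. In total 6 of 10 members were higher in LN in all 5 mice, against 12.4% of all genes, and none was lower in all 5 (13.3%). H2-D1, H2-T23 and B2m were higher in LN in 3 of 5 mice and lower in the other 2. The median difference of the 10 members was 0.19, and that of all genes 0.01.

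**Figure D3:**
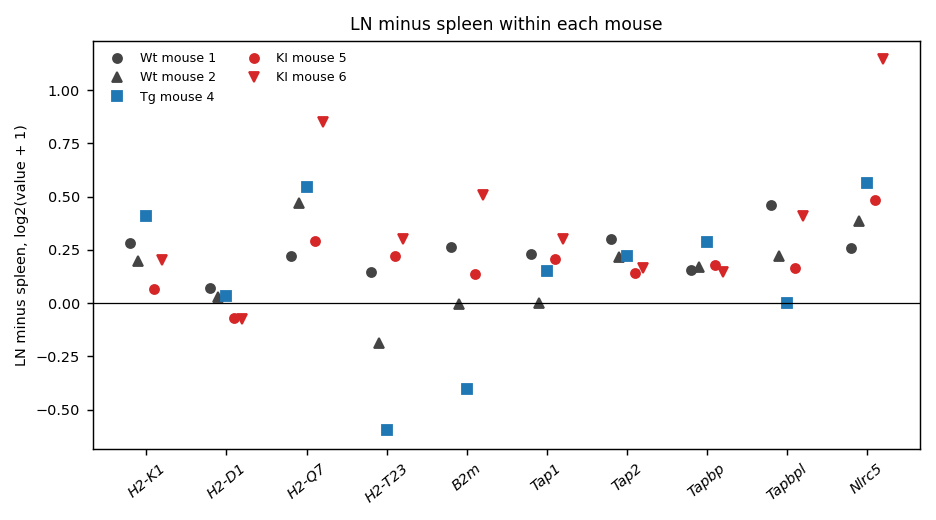
LN minus spleen within each mouse on the log2(value + 1) scale (y axis) for the 10 genes (x axis), 1 point per mouse for the 5 mice with both tissues. Nlrc5 and H2-Q7 lie above 0 in all 5 mice, while H2-T23 and B2m lie below 0 in Tg mouse 4 (-0.60 and -0.40).

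Class II genes went the other way between tissues, a comparison in which 6.05% of all genes were called higher in LN and 9.07% lower. Of 11 class II genes 8 were lower in LN than in spleen and none was higher; H2-Aa, an alpha chain, differed by -0.46 ± 0.10 (limma adjusted p = 0.0063), and the invariant chain gene Cd74 by -0.43 ± 0.10 (limma adjusted p = 0.0152). Of 16 genes of peptide supply and loading, 5 were higher in LN: the immunoproteasome subunits Psmb8 and Psmb10, the proteasome activator genes Psme1 and Psme2, and the trimming peptidase Erap1. The B and T cell markers moved in the same comparison. Of 20 T cell markers 18 were higher in LN, and of 10 B cell markers 8 were lower. Their part in the tissue differences was not tested. In whole tissue, fewer cells of a type and less RNA per cell cannot be told apart.

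Ratios between heavy chains within a library do not depend on the library's scaling. H2-T23 as a share of H2-K1 was 12.1% and 12.2% in Wt spleen and 17.9% to 19.0% in KI spleen, and in LN it was 9.28% to 11.1% in Wt, 5.13% to 10.8% in Tg and 19.1% to 21.2% in KI. The 4 KI libraries lay above all 7 others by this measure too. H2-Q7 as a share of H2-K1 was 22.3% and 22.4% in Wt spleen, 23.6% in Tg spleen and 16.2% to 17.7% in KI spleen, but in LN it was 21.4% to 26.8% in Wt and 20.7% to 25.3% in KI, which overlapped. H2-D1 lay between 90.3% and 98.9% of H2-K1 in spleen and between 69.9% and 85.7% in LN, with every spleen library above every LN library. No test was run on these ratios. A ratio shows unequal change, and not which gene changed.

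**Figure D4:**
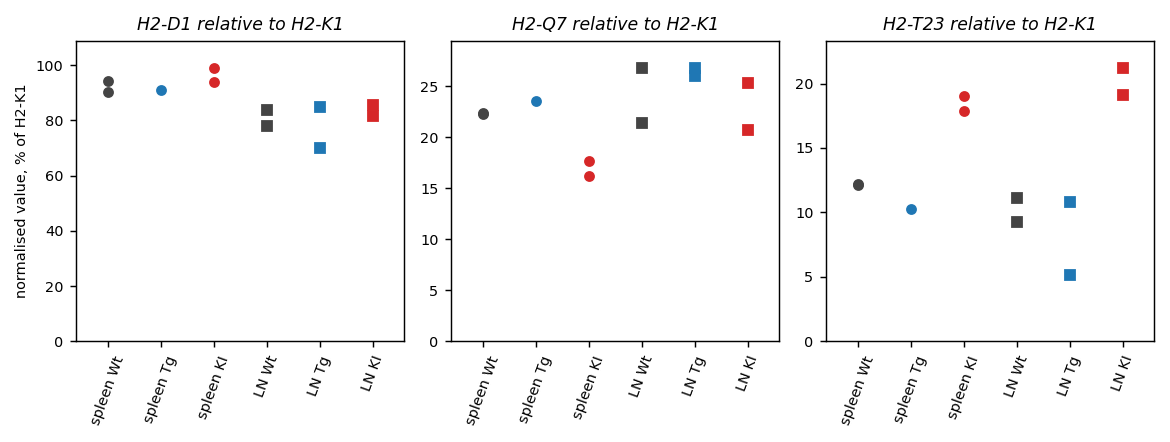
Normalised value of H2-D1, H2-Q7 and H2-T23 as a percentage of H2-K1 in the same library (y axis), by tissue and genotype; each point is 1 library. The H2-T23 ratio is 17.9% or more in the KI libraries and 12.2% or less in the others, and the H2-D1 ratio is lower in LN than in spleen.

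Other heavy chains of the class I family were called in both directions in KI LN. Of 24 listed, 12 were in the table. H2-T24, H2-M3 and H2-Q2 rose against Wt LN (13.8% of all genes rose) and Fcgrt, Cd1d1 and H2-M2 fell (12.2% of all genes). H2-T24, another gene of the T region, was at 597 and 641 in Wt LN and at 2028 and 2466 in KI LN, a difference of 1.85 ± 0.22 (limma adjusted p = 0.000459). It rose in KI spleen as well, by 0.85 ± 0.22 (limma adjusted p = 0.03), where it was at 529 and 937 in Wt and at 1261 and 1278 in KI. The KI libraries were above the Wt libraries in both tissues. H2-M3, which presents formylated peptides, was at 1182 and 900 in Wt LN and at 1663 and 1693 in KI LN (0.70 ± 0.14, limma adjusted p = 0.00493). H2-Q2 (1.97 ± 0.47, limma adjusted p = 0.0109) and H2-M2 (-1.96 ± 0.48, limma adjusted p = 0.0122) were weak genes, with LN values between 16.5 and 121.

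Among the relatives that fell, Cd1d1, which presents lipids to NKT cells, was at 698 and 626 in Wt LN and at 358 and 441 in KI LN (-0.73 ± 0.15, limma adjusted p = 0.00481), and it fell alike in spleen (-0.70 ± 0.15, limma adjusted p = 0.0107). Fcgrt, the heavy chain of the neonatal Fc receptor, was at 332 and 434 in KI LN against 721 and 761 in Wt LN (-0.96 ± 0.15, limma adjusted p = 0.00108). In spleen its values were 738 and 868 in Wt and 726 and 726 in KI. The median difference of the 12 genes in LN was -0.14, beside -0.02 over all genes. In the upstream windows, H2-M3, H2-Q4 and H2-Q6 have TTTCACTTC as H2-K1 and H2-D1 do, and H2-Q6 has GGGATTCCC too. H2-M3 rose in KI LN, whereas H2-Q4 (-0.21 ± 0.11, limma adjusted p = 0.206) and H2-Q6 (-0.08 ± 0.19, limma adjusted p = 0.801) were not called. H2-T22, at 0.28 ± 0.13 in LN (limma adjusted p = 0.137), has TTTCNNTTT as H2-T23 does.

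**Figure D5:**
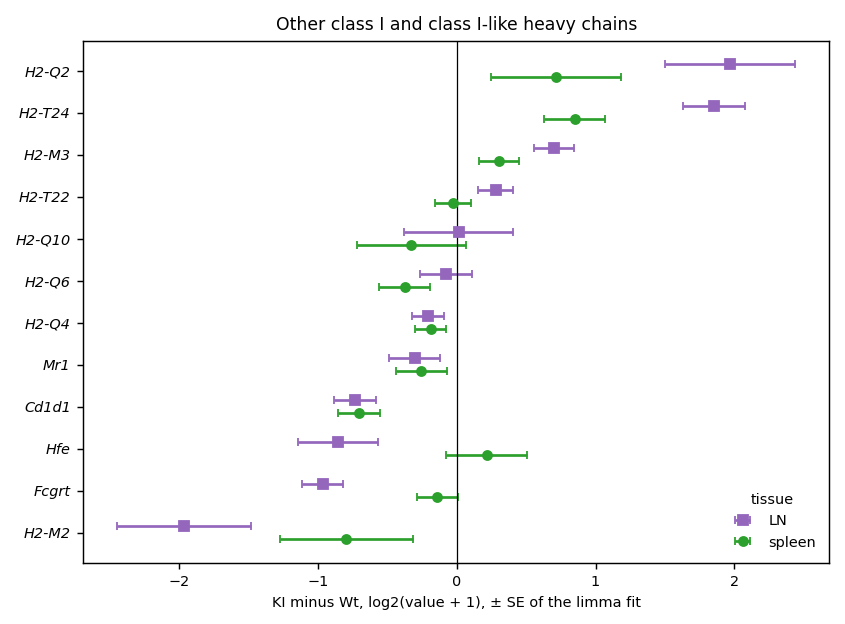
KI minus Wt on the log2(value + 1) scale (x axis) for 12 further class I and class I-like heavy chain genes (y axis), with bars of ± 1 standard error of the limma fit; squares are LN and circles are spleen. H2-T24 lies to the right in both tissues (1.85 and 0.85) and Cd1d1 to the left in both (-0.73 and -0.70).

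Genes that supply and load peptides hardly moved at the authors' scaling. Of 16, none was called in KI LN against Wt, and the medians were 0.07 in LN and 0.05 in spleen. Removal of immunoglobulin and haemoglobin genes moved the median of all genes in KI minus Wt LN by 0.131. The 16 genes were not read under that scaling. In KI spleen 2 rose against Wt, where 7.63% of all genes were called higher. Both have roles in glycoprotein folding in the endoplasmic reticulum. Uggt1, the glucosyltransferase that returns misfolded chains to calnexin, rose by 0.51 ± 0.13 (limma adjusted p = 0.0214). The glucosidase subunit Ganab rose by 0.37 ± 0.11 (limma adjusted p = 0.0427). Against Tg LN, KI LN was higher in 3 of the 16, Canx, Pdia3 and Ganab, where 14.5% of all genes were called higher. Plasma cells also use this machinery, and their markers moved in the same comparisons: summed over 12 plasma cell genes, Wt stood at 10174 to 13841 in LN and 26634 to 29094 in spleen, and KI at 150828 to 155653 and 82428 to 131841. Their part was not tested.

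Regulators of the pathway changed in both directions. Of 19, 2 rose and 5 fell in KI LN, beside 13.8% and 12.2% of all genes, with medians of -0.08 in LN and -0.01 in spleen. The interferon-gamma receptor chain Ifngr2 was at 1329 and 1797 in Wt LN and at 704 and 770 in KI LN (-1.07 ± 0.18, limma adjusted p = 0.00209). The kinase gene Jak1 (-0.52 ± 0.10) and the NF-kB subunit gene Nfkb1 (-0.46 ± 0.11) also fell there. In KI spleen none of the 19 rose and 3 fell (7.63% and 9.21% of all genes): the transcription factor gene Irf1, at 4896 and 5706 in Wt and 3039 and 2645 in KI (-0.90 ± 0.13, limma adjusted p = 0.00183), Jak2 (-0.55 ± 0.13, limma adjusted p = 0.0155) and the signalling inhibitor gene Socs1 (-0.68 ± 0.20, limma adjusted p = 0.0394).

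The list of type I interferon response genes was called higher throughout in KI LN, with all 16 of 16 genes, beside 3 of 16 in KI spleen (13.8% and 7.63% of all genes), with medians of 2.62 and 0.68, while the medians of the 10 class I members were -0.10 and -0.05. Of 14 interferon-gamma-induced GTPase genes 7 rose in KI LN, with a median of 0.66. In spleen their median was -0.19, while Irgm1 rose (0.58 ± 0.15, limma adjusted p = 0.0244) and Gbp2 fell (-0.69 ± 0.17, limma adjusted p = 0.019). The lists were not tested against each other. Summed over the 16 type I genes, KI LN stood at 28928 to 38073 and Wt LN at 6871 to 9796. Summed over the 10 class I members, KI LN stood at 172329 to 189555 and Wt LN at 196729 to 198447. Most of that sum came from H2-K1, H2-D1 and B2m (70584, 54984 and 26532 in the LN of Wt mouse 1). None of them was called in KI LN against Wt. Without immunoglobulin and haemoglobin genes they differed by -0.11, -0.06 and 0.001 there. Class II genes gave 1 call in each tissue, H2-Ob, an inhibitor of class II peptide exchange, which rose by 0.46 ± 0.11 in LN (limma adjusted p = 0.0117) and by 0.47 ± 0.11 in spleen (limma adjusted p = 0.0174).

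Cell type markers moved with the KI groups in both tissues. Of 20 T cell markers 18 fell in KI LN and 17 in KI spleen, where 12.2% and 9.21% of all genes were called lower. Their summed value was 54806 to 69235 in KI LN and 31726 to 33933 in KI spleen, beside the Wt ranges given above. B cell markers summed to 90656 to 113869 in KI LN against 67196 to 75145 in Wt LN, and to 136065 to 150450 in KI spleen against 104238 to 111155 in Wt spleen. Antigen-presenting cells moved too. Of 12 macrophage markers 7 fell in KI LN against Wt (median -1.26) and 10 against Tg LN, with sums of 1219 to 1328 in KI LN, 1872 to 2654 in Wt LN and 2934 to 3083 in Tg LN, and none was called in KI spleen against Wt. Of 9 dendritic cell markers measured, 3 fell and 2 rose in KI LN against Wt, with a median of 0.19. Their sums were 3953 to 6850 in KI LN and 9966 to 18443 in Wt LN, so the sum fell while the median did not. Of 10 NK and cytotoxic markers 2 fell in LN, near the share of all genes, and 3 in spleen, with sums of 3326 to 4244 in KI LN and 5542 to 5818 in Wt LN. No listed marker was at 0 over a whole group. The part of these shifts in the class I differences was not tested.

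Glo1, a neighbour of the H2 complex whose copy number is known to differ between inbred mouse strains, was read because the lines may differ in H2 haplotype. It was at 392 and 403 in the spleen and LN of Wt mouse 1, at 695 and 798 in those of Wt mouse 2, at 699 in the LN of Tg mouse 3, and at 726 and 770 in the spleen and LN of Tg mouse 4. In KI it was at 343 and 282 in mouse 5 and at 423 and 341 in mouse 6. Values thus fell into a lower range shared by Wt mouse 1 and both KI mice and a higher range shared by Wt mouse 2 and both Tg mice, alike in both tissues of a mouse. In LN, Glo1 was called lower in KI than in Tg (-1.24 ± 0.36, limma adjusted p = 0.0403), the comparison in which H2-T23 differed by 1.16, and was not called between KI and Wt (-0.87 ± 0.36, limma adjusted p = 0.121). The 2 lines thus lay wholly in different Glo1 ranges, and the part of this in the H2-T23 difference was not tested. H2-T23 was at 7052 and 7802 in the spleen and LN of Wt mouse 1 and at 7147 and 6273 in those of Wt mouse 2. Whether the Glo1 range of a mouse follows its H2 haplotype was not tested. Without Wt mouse 2, the H2-T23 difference in LN was 0.59 (limma adjusted p = 0.202), and in spleen 0.48 (limma adjusted p = 0.343). H2-Ea, H2-Ea-ps and Nnt, other genes that mark haplotype or strain, were not analysed here, and haplotype and genotype cannot be told apart in these mice.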

How the data were processed

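Per the submitters' processing notes, FastQC 0.11.5, STAR 2.5, featureCounts, Subread 1.4.6, DESeq2 1.26.0 and GRCm39 were used, in no stated role. The deposited values are a normalised signal: gene counts that the authors had scaled by 1 factor per library, as read from the values (100% whole multiples of a step, within 0.05 reads). Strand setting, annotation and gene filter are not given in the sources used here, and each gene reached at least 109.3 in some library.

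Limma-trend 3.58.1 (R 4.3.3, robust) was run on log2(value + 1) with the 6 group means as terms (11 libraries, 5 residual degrees of freedom); calls needed a Benjamini-Hochberg adjusted p under 0.05 over 10885 genes. For LN against spleen the terms were genotype and tissue. The members, lists and tests were chosen with earlier results of these data known. All members were named, and of each other list up to 4 called genes with the smallest p in KI against Wt; H2-Q2, H2-M2, H2-T22, H2-Q4, H2-Q6, Canx, Pdia3 and the genes named for LN against spleen were added after their values were seen. The values of 1 named gene are not reported here. Spleen and LN with 1 number come from 1 mouse, and their deviations from the group means correlated over genes at 0.403 (Wt) and 0.900 (KI); the mouse was a replicate block in alternatives only. Further alternatives were pseudocounts of 0.1 and 5, a mean of at least 200, removal of immunoglobulin and haemoglobin genes, quantile normalisation, 1 tissue alone, each library or mouse left out, and edgeR 4.0.16 (quasi-likelihood, TMM) on recovered LN reads. Fits were tested on simulated data. GENCODE M21 gave exon lengths and RefSeq (GRCm38.p6) the promoters; the table is of another build, so other positions are not given.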

Additional observations from a re-analysis of the deposited data

Results flagged for a closer look

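The KI minus Wt difference of 4 interferon-responsive genes was larger in LN than in spleen by the interaction test, in which none of the 10 class I genes passed. Irf7, a transcription factor that amplifies interferon production, differed between tissues by 2.19 ± 0.36 (limma adjusted p = 0.0386); it was at 1140 and 717 in Wt LN, 4428 and 6664 in KI LN, 1007 and 1081 in Wt spleen and 1228 and 1546 in KI spleen. The antiviral gene Oas1a differed by 1.83 ± 0.33 (limma adjusted p = 0.036), with 190 and 123 in Wt LN against 833 and 1115 in KI LN, and 188 and 190 in Wt spleen against 304 and 367 in KI spleen. For both genes the KI libraries were above the Wt libraries in each tissue. The GTPase gene Gbp6 differed by 1.80 ± 0.35 (limma adjusted p = 0.0446) and Gbp9 by 0.92 ± 0.18 (limma adjusted p = 0.0455). Gbp9 was at 3739 and 4619 in KI LN against 2696 and 2279 in Wt LN, but at 2226 and 2050 in KI spleen against 2540 and 2301 in Wt spleen. Of all genes, 0.763% were called with the higher difference in LN by this test. These interactions of single listed genes were read after the counts of the lists had been seen. Their values under the alternative fits are not given here.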

How the results depend on the processing

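Over the 10 genes and 9 comparisons, 1247 values under an alternative kept their sign and their side of the threshold, 55 lost a call, 14 gained one and 84 changed sign. Every value that changed sign belonged to a difference that was not called, and the cause was not tested. Removal of immunoglobulin and haemoglobin genes moved the median of all genes in KI minus Wt LN by 0.131 and the split of calls from 1502 higher and 1331 lower to 2066 and 879; quantile normalisation gave 1237 and 1420. In spleen the split went from 830 and 1003 to 1427 and 816, in KI minus Tg from 1580 and 1330 to 2046 and 1032 (LN) and from 365 and 474 to 776 and 438 (spleen, or 654 and 528 by quantile normalisation). With 2 mice a group, small differences could not be told from 0: the median standard error of the members was 0.13 in KI minus Wt LN.

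Signs that changed under removal of those genes were, in KI minus Wt LN, B2m (0.001), Nlrc5 (0.124), Tap2 (0.016) and Tapbpl (0.046); in KI minus Wt spleen, H2-D1 (0.023), Tap2 (0.077) and Tapbpl (0.058); H2-D1 in Tg minus Wt LN (0.008), in KI minus Tg spleen (0.020) and in the tissue dependence of the Tg difference (0.005); and Tap2 in KI minus Tg LN (0.070). Under quantile normalisation they were B2m (0.157) and Nlrc5 (0.121) in KI minus Wt LN, Tap2 (0.031) in KI minus Wt spleen, Nlrc5 (0.008) in Tg minus Wt LN, H2-D1 (-0.164) and H2-K1 (-0.193) in Tg minus Wt spleen, and H2-D1 in LN minus spleen (0.044) and in the tissue dependence of the Tg difference (0.097). In edgeR, Nlrc5 in KI minus Wt LN was 0.020. With the mouse as a fixed replicate block, H2-T23 in LN minus spleen was -0.023.

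Counts of called members moved as follows. In KI minus Wt LN, members called higher were 2 without immunoglobulin and haemoglobin genes and 2 by quantile normalisation (H2-T23 and Tap1), and 0 in LN alone and in edgeR; members called lower were 2 by quantile normalisation (H2-K1 at -0.83 and H2-D1 at -0.41). In KI minus Wt spleen, members called lower were 0 without immunoglobulin and haemoglobin genes, 2 by quantile normalisation (H2-K1 and H2-D1) and 2 in spleen alone, where 1 was called higher. In KI minus Tg LN, edgeR called 1 member higher, and members called lower were 0 at a mean of at least 200, without immunoglobulin and haemoglobin genes, in LN alone and in edgeR. In KI minus Tg spleen, spleen alone called 1 member higher, 1 lower and 1433 genes. With the mouse as a fixed replicate block, 2 members were called in LN minus spleen, and 596 and 5 genes in the tissue dependence of the KI and Tg differences; the random replicate block changed no call of a member. At a mean of at least 200, 69 genes were called in the tissue dependence of the KI difference and 1092 in LN minus spleen.

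Leaving out 1 library or mouse, genes called ran from 1318 to 1959 (KI minus Wt LN), 624 to 815 (KI minus Wt spleen), 1228 to 2545 (KI minus Tg LN), 258 to 382 (KI minus Tg spleen), 0 to 22 (Tg minus Wt LN), 0 to 7 (Tg minus Wt spleen), 3 to 118 and 0 to 3 (tissue dependence of the KI and Tg differences) and 1073 to 1742 (LN minus spleen). Members called higher ran from 0 to 1 (KI minus Wt LN), 1 to 2 (KI minus Tg LN) and 2 to 5 (LN minus spleen), and members called lower from 0 to 0 (KI minus Wt spleen) and 0 to 2 (KI minus Tg LN). Differences whose sign changed ran, in KI minus Wt LN, from -0.253 to 0.233 (Nlrc5) and -0.213 to 0.036 (Tapbpl); in KI minus Wt spleen, from -0.084 to 0.054 (Tap2) and -0.124 to 0.056 (Tapbpl); in KI minus Tg LN, from -0.070 to 0.357 (B2m) and -0.202 to 0.284 (Nlrc5); in Tg minus Wt LN, from -0.130 to 0.199 (H2-K1), -0.209 to 0.107 (Nlrc5) and -0.174 to 0.017 (Tapbp); in Tg minus Wt spleen, from -0.055 to 0.136 (B2m), -0.031 to 0.050 (H2-D1), -0.112 to 0.027 (Tap2) and -0.173 to 0.006 (Tapbpl); in LN minus spleen, from -0.025 to 0.013 (H2-D1) and -0.027 to 0.126 (H2-T23); in the tissue dependence of the KI difference, from -0.055 to 0.506 (H2-Q7), -0.093 to 0.098 (Tapbp) and -0.179 to 0.070 (Tapbpl); and in that of the Tg difference, from -0.162 to 0.168 (H2-K1), -0.086 to 0.201 (H2-Q7), -0.574 to 0.173 (H2-T23), -0.076 to 0.239 (Nlrc5), -0.072 to 0.160 (Tap1), -0.122 to 0.016 (Tap2) and -0.010 to 0.181 (Tapbp). Ratios of heavy chains kept their values under the other pseudocounts.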

Other observations

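The genes most like the mean profile of the 10 members over the 11 libraries were Galk2, Setd3, Lonp2, Tomm70a and Yme1l1, at root mean square distances of 0.038 to 0.069 on the log2 scale after centring. The members themselves lay between 0.067 (Tap2) and 0.436 (H2-T23) from that mean, so it describes Tap2 and Tapbpl (0.083) well and H2-T23 poorly. The genes nearest to H2-T23 alone, a search made after its values were seen, were Ttc32 (0.123), Fbxo5 (0.137), Zfp41, Mtdh and Zfp934 (0.155). These 5 differed between KI and Wt by 0.60 to 0.90 in LN and by 0.26 to 0.63 in spleen. Differences like those of H2-T23 follow from the search, which matched profiles over the same 11 libraries.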
